A study of Mus musculus with 20 samples.

Results

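Cytosolic ribosomal protein genes encode the protein parts of the ribosome that works outside mitochondria. They were taken by symbol: Rpl or Rps followed by a number, with at most an a, x or l and a digit, together with Rpsa, Rplp0, Rplp1 and Rplp2, and without -ps pseudogenes and the Rps6k kinases. This gave 89 of the 51912 gene identifiers in the 24 h table and 85 of the 19722 in the 4 h table. Of the 89, 77 are the standard proteins of the ribosome (called core members here, 46 of the large and 31 of the small subunit), 6 are second copies with their own symbol (Rpl3l, Rpl7l1, Rpl10l, Rpl22l1, Rpl39l and Rps27l), and 6 are pseudogenes in the annotation although their symbols fit (Rpl6l, Rpl32l, Rps3a2, Rps3a3, Rps4l and Rps12l1). Rpl36al, Fau and Rack1, which also give ribosomal proteins, fall outside the rule.

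The RNA came from mouse forebrain slices, cut at postnatal day 4 and cultured with 5% horse serum, and was sequenced in 20 libraries of SMART-Seq chemistry. At 4 h there were 3 libraries labelled TSG-6-/- (knockout, KO) and 3 labelled TSG-6+/+ (wild type, WT). At 24 h there were 4 KO-labelled and 3 heterozygous (Het) libraries of each sex. The titles and the genotype entries name the 24 h controls heterozygous, whereas the treatment text of the same libraries speaks of WT slices; titles and genotype were followed. TSG-6, encoded by Tnfaip6, is a secreted protein that binds hyaluronan. All slices, controls included, had received serum. The labels name no strain and no knockout construct, and do not say whether libraries of a group stem from separate or pooled animals; the p-values below therefore speak to variation among libraries, part of which may be technical.

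Library totals were 11411532 to 15030171 reads at 4 h and 8482933 to 18051300 at 24 h. The targeted gene did not separate the labels: Tnfaip6 had 37, 83 and 73 reads in the KO-labelled and 76, 94 and 83 in the WT libraries at 4 h, and 54 to 108 in the KO-labelled and 45 to 69 in the Het libraries at 24 h. The deleted stretch is not named, so totals over the whole gene need not show the loss, and every genotype direction below rests on the labels. The library labelled KO female 2 had 0 Xist reads and 1650 reads of Y-linked genes, a pattern like that of the male libraries. Among these, Het male 1 also had 107 Xist reads beside 1470 reads of Y-linked genes. Medians over the members in females, for the sex difference of the KO effect and for males minus females are also given without KO female 2. Most other values that use it are not. At 4 h the labels give no sex, and WT 1 and KO 1 were the libraries with Xist reads (5655 and 2355). The forebrain markers Emx1, Neurod6, Tbr1, Dlx1 and Dlx2 together had 292 to 481 CPM per library, and the Hox genes of hindbrain and spinal cord 0 to 0.159 CPM.

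A ribosome needs its proteins in about equal numbers, and in mammals the supply is set largely at translation. Their mRNAs begin with a C in a short run of pyrimidines, the 5′ terminal oligopyrimidine (TOP) motif, through which mTORC1 and the RNA-binding protein Larp1 switch their translation on in growing cells and off in starved ones. mRNA levels of these genes are therefore usually high and steady, and loss of the match between members is sensed through Rpl5 and Rpl11, which bind Mdm2 and thereby stabilise p53. Some second copies have restricted use: Rpl3l in striated muscle, Rpl10l and Rpl39l in testis.

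Windows around the annotated start were searched for pyrimidine runs; a run in a window is not the TOP motif itself, which lies at the first base of the mRNA. RefSeq promoter windows (GRCm38.p6) were at hand for 64 of the 89 members. Bases 35 before to 30 after the annotated start held an unbroken run of at least 8 pyrimidines on the sense strand in 53.1% of these members and in 24.7% of 26961 other genes. In the wider window of 250 bases before to 50 after the start, the letters CCGGAA, the core bound by ETS factors, stood on either strand in 50% of members and 15.1% of other genes. GGAAG, searched in the same way, stood in 92.2% and 71.0%, and TATA in 34.4% and 37.4%. CCGGAA and GGAAG can overlap by their shared letters GGAA. A match is a description of the letters and not a site shown to be used. The longest run in the narrow window had a median length of 9 bases in large-subunit and 7 in small-subunit core members. Shown here are the member with the longest run (Rpl7a), a member whose protein is the best known target of S6 kinase (Rps6), 3 members among the largest differences in males below (Rps24, Rplp2 and Rps28), and second copies with their partners. Capitals mark the longest pyrimidine run, and the annotated start is base 36.
Rpl7a, chr2:26910772-26910836, plus strand: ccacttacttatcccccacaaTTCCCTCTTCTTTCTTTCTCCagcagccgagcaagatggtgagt
Rps6, chr4:86857338-86857402, minus strand: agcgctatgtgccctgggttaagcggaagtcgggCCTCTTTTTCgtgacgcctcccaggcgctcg
Rps24, chr14:24490643-24490707, plus strand: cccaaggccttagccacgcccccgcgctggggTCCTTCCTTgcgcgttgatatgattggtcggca
Rplp2, chr7:141447616-141447680, plus strand: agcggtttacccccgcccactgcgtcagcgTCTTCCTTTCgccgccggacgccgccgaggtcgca
Rps28, chr17:33824533-33824597, minus strand: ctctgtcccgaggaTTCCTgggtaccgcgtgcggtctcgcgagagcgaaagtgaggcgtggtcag
Rps27, chr3:90213619-90213683, minus strand: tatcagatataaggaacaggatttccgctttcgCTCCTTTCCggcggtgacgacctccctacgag
Rps27l, chr9:66946051-66946115, plus strand: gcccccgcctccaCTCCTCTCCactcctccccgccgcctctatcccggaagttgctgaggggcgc
Rpl22, chr4:152325691-152325755, plus strand: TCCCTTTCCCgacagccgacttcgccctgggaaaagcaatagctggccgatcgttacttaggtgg
Rpl22l1, chr3:28805473-28805537, plus strand: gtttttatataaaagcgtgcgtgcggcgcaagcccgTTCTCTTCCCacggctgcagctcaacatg
Rpl7l1, chr17:46782627-46782691, minus strand: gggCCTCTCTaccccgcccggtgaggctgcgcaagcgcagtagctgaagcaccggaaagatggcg
In Rpl7a, Rps6, Rps24, Rplp2 and Rps27 the longest run spans the annotated start, whereas in Rps28 no run exceeds 5 bases. The second copies Rps27l and Rpl7l1 carry their longest run upstream of the start, and Rpl22l1 directly behind it, while its partner Rpl22 has its own at the upstream edge of the window.

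Ribosomal protein genes took between 2.03% and 2.67% of all reads. In bulk RNA, as here and in all that follows, fewer cells of a type and less RNA per cell cannot be told apart. Per kilobase of annotated exon, Rplp1, an acidic protein of the stalk that recruits elongation factors, stood first: 952 ± 22.1 CPM per kb at 4 h (SD, n = 6) and 1040 ± 135 at 24 h (SD, n = 14), and its lowest library lay above the highest of the next gene in both tables. At 24 h Rps15, a small-subunit protein near the decoding centre, had 499 ± 54.4 CPM per kb, the stalk base Rplp0 490 ± 44.0, Rps3a1 457 ± 37.5 and Rpl4, which lines the exit tunnel for the growing chain, 410 (369 to 443 over libraries). These 4 overlapped their neighbours in the order. The median core member had 141 CPM per kb, with quartiles of 87.8 and 214, and 3 of the 77 core members at 24 h were clear of the next one below. The order was nearly the same in both tables (Spearman's rho 0.99 over 77 genes, a description of these libraries).

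**Figure D1:**
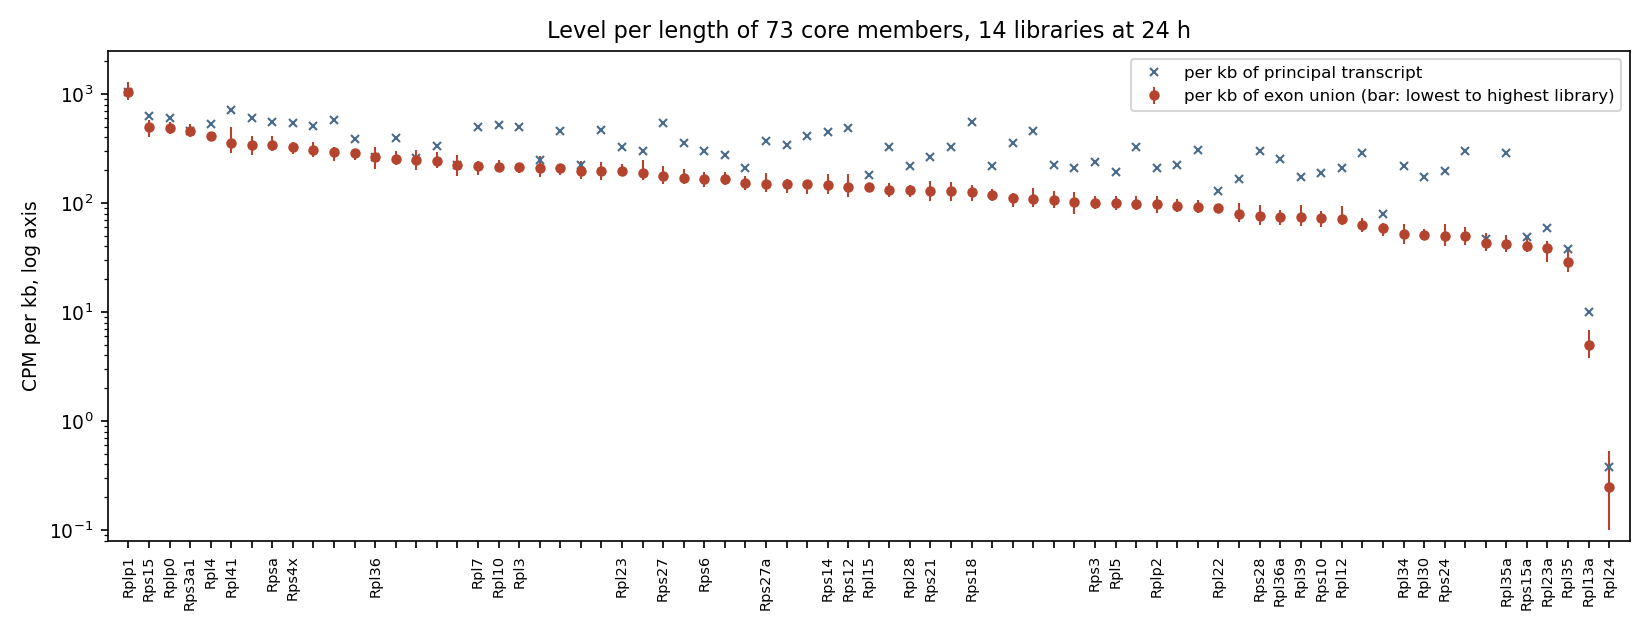
Mean level of 73 core members at 24 h in CPM per kb on a log axis, ordered from high to low, per kb of all annotated exons (circles, bars from the lowest to the highest of 14 libraries, bars cut at 0.1 where a library had 0) and per kb of the principal transcript (crosses); members described in the text carry their symbol. Rplp1 leads at 1040, and Rpl13a and Rpl24 lie far below the rest at 4.95 and 0.25.

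At the low end stood 2 core members. Rpl13a, a large-subunit protein, had 4.95 ± 0.94 CPM per kb and Rpl24, a protein of the bridge between subunits, 0.25 ± 0.18 at 24 h (SD, n = 14), or 0 to 7 reads per library. In the annotation 47.0% of Rpl24's exon bases are shared with Gm28037 and 35.4% of Rpl13a's with other genes on the same strand, chiefly Gm45713. Both partner genes were at 0 reads at 24 h. How reads falling in more than 1 gene were assigned is not given in the sources used here, and these 2 values are uncertain as levels. Next above were Rpl35 (28.9 ± 3.90), Rpl23a (38.7 ± 4.65), Rps15a (40.4 ± 3.06) and Rpl35a (42.2 ± 4.65 CPM per kb). Of the exon bases of Rpl35, 66.2% lie opposite Wdr38, and of those of Rpl23a, 59.7% lie opposite Tlcd1 and, without a known strand setting, reads of the 2 genes in each pair cannot be separated. The choice of length moved the order: per kb of principal transcript the order at 24 h was Rplp1 (1040), Rpl41 (719 ± 126), Rps15 (629 ± 68.5), Rps29 (610 ± 72.3) and Rplp0 (599 ± 53.8), and the ranks under both lengths correlated at 0.77.

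The 5 lowest of all members per kb at 24 h were second copies and pseudogenes: Rpl10l and Rps12l1 had 0 reads in all 14 libraries, Rpl32l 0 to 1, Rpl3l 0 to 5 and Rpl39l 0 to 6. Rpl10l, Rpl32l, Rpl39l and Rps12l1 have no row in the 4 h table. The other members too low for a test at 4 h were Rpl24 (0 to 11 reads), Rpl3l (1 to 12), Rps3a2 (7 to 14) and Rps3a3 (1 to 8), and at 24 h Rps3a3 (1 to 13) in addition to Rpl24 and those named above. That left 81 members tested at 4 h and 82 at 24 h. The annotation lists 299 -ps pseudogenes of 61 members; together they took 0.00573% to 0.00788% of reads, and reads that match a member and such a copy equally may have been lost or split.

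The second copies were read below the level of their partners. Rps27l, a p53 target, had 23.3 ± 3.22 CPM at 24 h beside 186 ± 21.6 for Rps27, which is 16.1% ± 1.76 per kb (SD, n = 14). Rpl22l1, which Rpl22 protein represses in mouse cells, stood at 7.96% ± 1.14 of Rpl22 per kb at 24 h and at 12.4% ± 1.83 at 4 h (SD, n = 6). Rpl7l1, named for its likeness to Rpl7, stood at 8.54% ± 0.91 and 7.80% ± 1.34 of Rpl7. Rps4l, an annotated pseudogene of Rps4x, was read at 6.97% ± 1.62 and 7.35% ± 1.11. The tables were made separately and differ in control genotype, so no test was run between 4 h and 24 h. Rpl36al, outside the rule, was at 0.17% ± 0.16 of Rpl36a at 24 h.

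**Figure D2:**
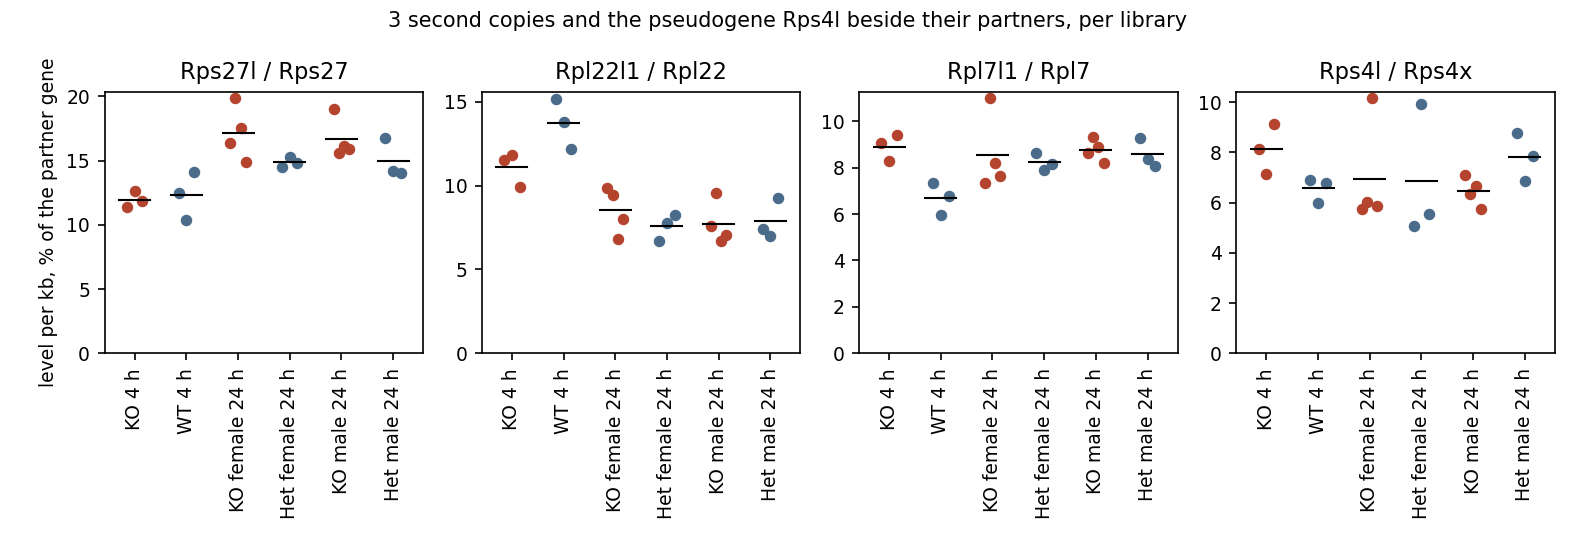
Level per kb of exon of 3 second copies and the pseudogene Rps4l as a percent of the partner gene, 1 point per library, line at the group mean. At 4 h the KO-labelled points lie below the WT points for Rpl22l1 and above them for Rpl7l1 and Rps4l, and at 24 h KO-labelled and Het points overlap for all 4 in both sexes.

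At 4 h, the comparison of KO-labelled with WT slices moved no member past the threshold: of 81 tested, 0 had an adjusted p under 0.05 (limma with Benjamini-Hochberg over 15181 genes), against 0.0461% of all genes. DESeq2 on recovered reads called 1 member, Rpl7l1, and edgeR on them 0. At an unadjusted p under 0.05, 1 member was higher (1.23%, where all genes had 7.25%) and 3 lower (3.7%, where all genes had 6.65%). Most members lay slightly below 0: 72 of 81 had a log2 fold change under 0, where 49.4% of all genes did, and their median was -0.06 against 0.00 for all genes.

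The highest value was that of Rpl7l1 (ENSMUSG00000063888, chromosome 17, 46773907 to 46782672, minus strand). It had 689, 733 and 746 normalised reads in KO-labelled slices, against 587, 582 and 557 in WT slices. The groups were apart, and the log2 fold change was 0.33 ± 0.08 (SE; limma adjusted p = 0.131), while DESeq2 gave an adjusted p of 0.0424; over all alternatives the adjusted p lay between 0.0424 and 0.383. Its partner Rpl7 had a log2 fold change of -0.09, so that per kb Rpl7l1 reached 8.90% ± 0.58 of Rpl7 in KO-labelled and 6.69% ± 0.69 in WT slices (SD, n = 3 each). At 24 h the same share was 8.54% ± 1.68 in KO-labelled and 8.23% ± 0.38 in Het females, and 8.75% ± 0.47 in KO-labelled and 8.58% ± 0.64 in Het males.

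Rpl13a had 132, 130 and 143 normalised reads in KO-labelled slices and 189, 194 and 154 in WT slices. The ranges were apart, and the log2 fold change of -0.40 ± 0.14 missed the threshold (limma adjusted p = 0.222). Rpl22l1 had 215, 251 and 183 normalised reads in KO-labelled slices and 273, 286 and 240 in WT slices. These ranges overlapped, as KO 2 lay above WT 3, and the log2 fold change was -0.31 ± 0.13 (limma adjusted p = 0.314), while Rpl22 was at 0.00. The pseudogene Rpl6l, with 5 to 11 reads in KO-labelled and 15 to 20 in WT slices, had -0.93 ± 0.40 (limma adjusted p = 0.321). Rps27l followed with -0.18 ± 0.13. On the upper side, after Rpl7l1, came Rps4l (0.18 ± 0.11), Rpl36 (0.02 ± 0.08), the stalk protein Rplp1 (0.02 ± 0.06) and Rps14 (0.01 ± 0.07). The ranges did not overlap for 3 members lower in KO-labelled slices (Rpl6l and Rpl13a among them; all genes 8.88%) and for 2 higher (Rpl7l1 and Rps4l; all genes 10.1%). Among members named for their place in the ribosome, the stalk proteins Rplp0 and Rplp2 were at -0.03 each, the S6 kinase target Rps6 at -0.10, Rps3 at -0.04, the laminin-binding Rpsa at -0.01 and the ubiquitin fusion Rps27a at -0.06. The X-linked members Rps4x, Rpl10, Rpl36a and Rpl39 were at -0.12, -0.11, -0.09 and -0.15.

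The size of the lean below 0 depended on single libraries. The members' share of reads was 2.15%, 2.30% and 2.13% in KO-labelled slices and 2.23%, 2.50% and 2.28% in WT slices. KO 2 lay inside the WT range and WT 2 above all others, and without WT 2 the median member fold change was -0.01, with 46 of 81 members below 0. Without KO 3 it was -0.04, and without KO 2 it was -0.10, with 18 members lower at an unadjusted p under 0.05 (all genes 1169 of 15207). With the replicate numbers as a block 0 members passed and 7 were lower at an unadjusted p under 0.05 (all genes 1171 of 15181), against 3 without it (all genes 1009). With WT 1 and KO 1, the libraries with Xist reads, left out the median was -0.09, with 74 of 81 members below 0. The ratio of large to small subunit reads was 1.372, 1.373 and 1.382 in KO-labelled slices and 1.367, 1.360 and 1.363 in WT slices, so that the groups were apart by a narrow margin. At 24 h it was 1.394 to 1.420 in KO-labelled and 1.352 to 1.406 in Het males, so that the groups overlapped, and in females the KO-labelled range of 1.370 to 1.414 enclosed all Het libraries.

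In females at 24 h, the members of KO-labelled and Het slices differed by values centred on 0. Of 82 tested, 0 had an adjusted p under 0.05 (edgeR quasi-likelihood test with Benjamini-Hochberg; all genes 0%) and 0 an unadjusted p under 0.05 in either direction (all genes 2.06% higher and 2.04% lower), and DESeq2 also called 0. No member's ranges were apart in either direction (all genes 2.3% higher and 2.4% lower). Of the 82, 41 lay below 0, where 48.8% of all genes did, and the median was 0.00. The highest values were those of Rps27l (0.18 ± 0.14), Rpl39, a small protein of the exit tunnel (0.11 ± 0.10), Rpl23a, at the tunnel's mouth (0.09 ± 0.09), Rpl22l1 (0.08 ± 0.16) and Rpl12 (0.08 ± 0.11). The lowest among members of at least 1 CPM were Rpl7 (-0.10 ± 0.08), Rpl22 (-0.08 ± 0.07), Rpl5, the 5S RNA carrier that binds Mdm2 (-0.08 ± 0.08), Rpl7l1 (-0.07 ± 0.07) and Rps4x (-0.07 ± 0.06). The share of reads was 2.67%, 2.06%, 2.28% and 2.33% in KO-labelled females and 2.42%, 2.50% and 2.16% in Het females, so the KO-labelled group held the highest and the lowest library. The lowest was the library labelled KO female 2; without it, 10 of 82 members lay below 0 and the median was 0.06, with 0 called. Without KO female 1, 75 lay below 0 and the median was -0.07, without Het female 3, 67 and -0.07, and without Het female 2, 21 and 0.05. The sign of the group in females thus turned on single libraries. Among the stalk proteins and the other members followed in every comparison, Rplp0 was at 0.01, Rplp1 at 0.08, Rplp2 at -0.01, Rps6 at -0.02, Rps3 at 0.00, Rpsa at 0.04, Rps27a at -0.01, Rpl10 at -0.06 and Rpl36a at -0.05.

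In males most members were lower in KO-labelled slices, each by little. Of 82 tested, 81 lay below 0, where 50.3% of all genes did, with a median log2 fold change of -0.15 against 0.00 for all genes. None passed the threshold (edgeR adjusted p under 0.05 for 0 of 82; all genes 0%), and DESeq2 called 0 as well. At an unadjusted p under 0.05, 13 members were lower (15.9%, where all genes had 2.74%) and 0 higher (all genes 4.13%). The ranges did not overlap for 10 members, all lower in KO-labelled slices (12.2%, where all genes had 3.77%), and for 0 higher (all genes 3.4%). The smallest adjusted p of any member was 0.718. Without the expression filter edgeR called 3 members lower, Rps28 (adjusted p = 0.032), Rplp2 (0.036) and Rps24 (0.0492). In that fit 168 genes were called higher and 52 lower of 30270, against 0 of 16013 with the filter.

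Rpl23a (ENSMUSG00000058546, chromosome 11, 78180932 to 78183584, minus strand) had 30.7, 30.9, 24.6 and 28.4 CPM in KO-labelled males, against 36.9, 36.3 and 35.3 CPM in Het males. Every KO-labelled library lay below every Het library, and the log2 fold change was -0.34 ± 0.10 (edgeR adjusted p = 0.718; 0.113 to 0.983 over the alternatives). Its overlap with Tlcd1 applies here too. Rps28, a small-subunit protein (chromosome 17, 33819027 to 33824562, minus strand), had 127, 114, 109 and 115 CPM in KO-labelled males and 135, 132 and 158 CPM in Het males. These groups too were apart, with -0.28 ± 0.09 (edgeR adjusted p = 0.718; 0.032 to 0.983 over the alternatives). The stalk protein Rplp2 had 201, 174, 176 and 172 CPM in KO-labelled males and 209, 219 and 230 CPM in Het males. Its fold change was -0.28 ± 0.11, beside -0.19 for Rplp1 and -0.04 for Rplp0, the base on which both sit. Rps24 had 312, 284, 256 and 275 CPM in KO-labelled males and 343, 307 and 368 CPM in Het males. KO male 1 lay inside the Het range, and the fold change was -0.27 ± 0.10. The pseudogene Rps4l had -0.34 ± 0.22, and the pseudogene Rps3a2, at under 1 CPM, had -0.44 ± 0.48.

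Other members with an unadjusted p under 0.05 included Rpl17, Rpl21, Rpl27a, Rpl35a, Rpl39, Rps7 and Rps18. Both subunits were represented alike: the median was -0.13 for 45 large-subunit and -0.16 for 31 small-subunit core members. Close to 0 stood Rps27l (-0.03 ± 0.14), Rpl15 (-0.03 ± 0.06) and Rpl7l1 (-0.04 ± 0.08), and Rpl13a was the member above 0 (0.13 ± 0.20). Rps6 was at -0.12, Rps3 at -0.12, Rpsa at -0.16, Rps27a at -0.17, Rps27 at -0.20, Rpl22 at -0.05, Rpl22l1 at -0.09, Rpl7 at -0.06 and Rpl3 at -0.05. The X-linked members were at -0.07 (Rps4x), -0.13 (Rpl10), -0.15 (Rpl36a) and -0.23 (Rpl39).

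**Figure D3:**
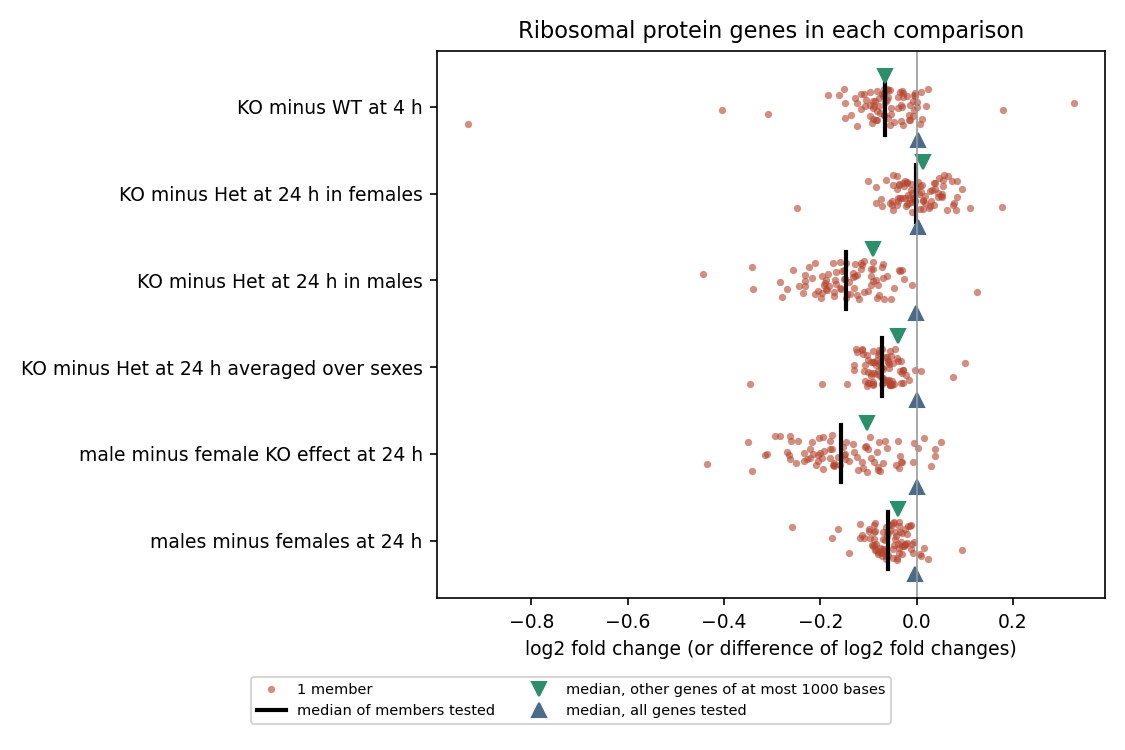
Log2 fold changes of the members tested in each comparison (points, spread vertically for legibility), with the median of the members (black line), of all genes tested (upward triangle) and of other genes with a principal transcript of at most 1000 bases (downward triangle). In males the members centre on -0.15 and the short genes on -0.09, and in females both centre near 0.

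The members' share of reads was 2.38%, 2.03%, 2.05% and 2.18% in KO-labelled males and 2.31%, 2.31% and 2.62% in Het males. KO male 1 lay inside the Het range and the other 3 below it. Leaving out single libraries moved the median member fold change in males between -0.21 and -0.09, with 77 to 82 members below 0. The counts at an unadjusted p under 0.05 moved more. Without KO male 1, 42 members were lower (all genes 462 of 16013), whereas 2 were without Het male 3 (486 of 16279), 5 without KO male 3 (272 of 16003), 6 without KO male 2 (372 of 16008) and 7 without KO male 4 (464 of 15971).

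Averaged over the sexes, 79 of 82 members lay below 0 (all genes 50%), with a median of -0.07; 0 passed (edgeR; all genes 0%), 0 had an unadjusted p under 0.05 (all genes 3.82% higher and 2.8% lower), and DESeq2 called 0. At an unadjusted p under 0.05, 27 members were lower without KO female 1 (all genes 449 of 15960), 11 without Het female 3 (418 of 16330) and 8 without KO male 1 (412 of 16013). The lowest were Rps4l (-0.20 ± 0.15), Rplp2 (-0.14 ± 0.08), Rps18 (-0.13 ± 0.07), Rpl36 (-0.13 ± 0.09) and Rps21 (-0.13 ± 0.08), and the highest Rpl13a (0.10 ± 0.14), Rps27l (0.07 ± 0.10), Rpl22l1 (0.00 ± 0.11) and Rplp0 (-0.02 ± 0.06).

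The difference between the sexes was tested by itself, as the male minus the female KO effect. Of 82 members, 76 lay below 0 (all genes 49.9%) with a median of -0.16; 0 passed (edgeR; all genes 0%; DESeq2 0) and 5 had an unadjusted p under 0.05, all lower (6.1%, where all genes had 1.95% lower and 1.91% higher). They were Rpl23a (-0.43 ± 0.13), Rps28 (-0.35 ± 0.12), Rpl39 (-0.34 ± 0.14), Rps24 (-0.31 ± 0.15) and Rpl35a (-0.31 ± 0.13), each with an edgeR adjusted p of 0.977. The highest were Rpl13a (0.05 ± 0.28), Rpl7l1 (0.04 ± 0.11), Rpl7 (0.04 ± 0.12), Rpl22 (0.03 ± 0.09) and Rpl5 (0.01 ± 0.11). Without the library labelled KO female 2 the median was -0.21, with 15 members lower at an unadjusted p under 0.05 (all genes 380 of 16010); without KO male 1 there were 16 (342 of 16013) and without Het female 2 there were 11 (597 of 16283), against 2 without Het female 3 (176 of 16330). Without KO female 1 the median was -0.07. No member's difference between the sexes passed the threshold in any of these fits.

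Males minus females, over both genotypes, put 77 of 82 members below 0 (all genes 51.6%) with a median of -0.06; 0 passed (edgeR; all genes 0.0187%; DESeq2 0), and 1 had an unadjusted p under 0.05, Rps21, with -0.16 ± 0.08 (all genes 2.3% lower and 2.12% higher). Without the library labelled KO female 2 the median was -0.08, with 4 members lower at an unadjusted p under 0.05 (all genes 417 of 16010). The other low values were Rpl41 (-0.18 ± 0.11), Rps12 (-0.14 ± 0.09), Rps10 (-0.12 ± 0.07) and Rpl34 (-0.12 ± 0.07), and the high ones Rps4l (0.02 ± 0.15), Rpl23 (0.02 ± 0.06), Rpl13a (0.01 ± 0.14), Rpl28 (0.01 ± 0.06) and Rpl30 (-0.01 ± 0.05). The X-linked members were close to 0 here: Rps4x at -0.01, Rpl36a at -0.02, Rpl10 at -0.03 and Rpl39 at -0.06.

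**Figure D4:**
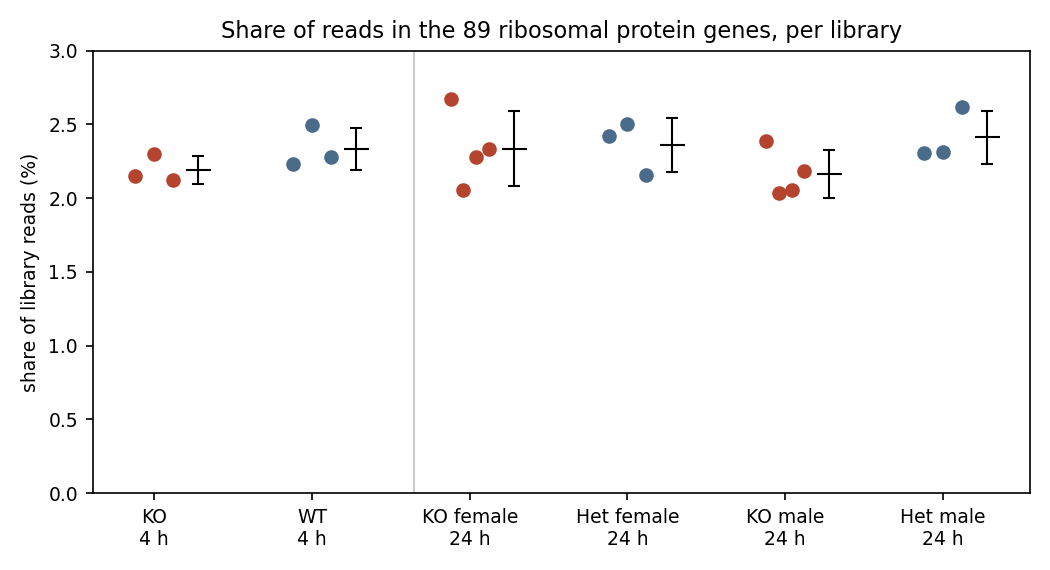
Percent of each library's reads in the 89 members, 1 point per library, with the mean and SD of each group beside it. All libraries lie between 2.03% and 2.67%, and in males 3 of 4 KO-labelled points lie below every Het point.

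Members moved together from library to library. After each gene's mean over a table was taken off its log2 level, 76 core members with a mean of at least 10 had a common deviation in each library. The lowest and highest medians were -0.09 (KO 3) and 0.16 (WT 2) at 4 h, and -0.17 (KO male 2) and 0.24 (KO female 1) at 24 h. Each member's correlation with the median of the others had a median of 0.92 over 6 libraries at 4 h and 0.90 over 14 at 24 h, and exceeded 0.5 for 68 and 75 of the 76. All members of a library share its depth and scaling, so this describes the libraries and carries no p. Once the common deviation was taken off, the SD of a member over libraries fell to a median of 0.05 at 4 h and 0.07 at 24 h on the log2 scale.

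Other genes deviated with them. A list of 13 translation factors and other TOP mRNAs (Eef1a1, Eef2, Eif4b, Pabpc1, Tpt1 and others) had library medians that correlated with those of the core members at r = 0.97 (rho 1.00, 6 libraries) at 4 h and r = 0.81 (rho 0.81, 14 libraries) at 24 h; without the 2 libraries farthest from the median of the list, r was 0.83 and 0.77. Genes outside the members with a principal transcript of at most 1000 bases gave r = 0.68 (rho 0.83) over 637 genes at 4 h. At 24 h they gave r = 0.95 (rho 0.85) over 396 genes. Without their own 2 farthest libraries r was 0.91 and 0.94. These genes had a mean of at least 10 normalised reads at 4 h and at least 10 CPM at 24 h. The floors differ, and the 4 h set holds lower genes. Mitochondrial ribosomal proteins, which serve the ribosome inside mitochondria, gave r = 0.86 (rho 0.81) at 24 h and 0.15 (rho -0.26) at 4 h. Without the 2 libraries farthest from their median, r was 0.77 over 12 libraries at 24 h and 0.83 over 4 at 4 h. At 4 h WT 3 and KO 3 were left out, and 4 libraries are too few to say which carried the low value. The 30 genes of ribosome making, such as Ncl and Fbl, gave r = -0.18 (rho -0.13) at 24 h and 0.37 (rho 0.26) at 4 h, and -0.35 and 0.41 without their 2 farthest libraries. These are descriptions with no p.

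**Figure D5:**
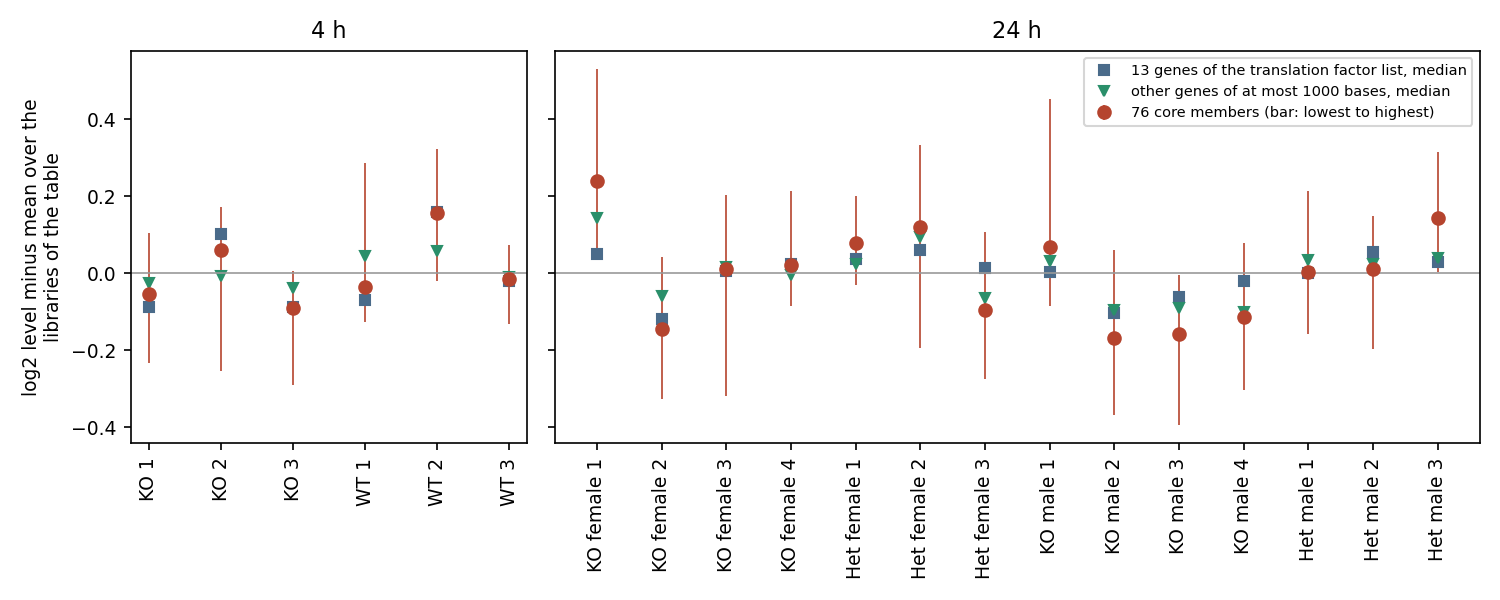
Deviation of each library on the log2 scale from the mean over the libraries of its table, for 76 core members (circle at the median, bar from the lowest to the highest member), 13 genes of the translation factor list (square) and other genes of at most 1000 bases (triangle; 637 genes at 4 h, 396 at 24 h). KO male 2, 3 and 4 and KO female 2 lie below 0 in all 3 classes at 24 h, and KO female 1 lies above 0. For the translation factor list, KO male 4 is close to 0 (-0.020), and KO female 1 (0.049) lies below Het female 2 (0.060).

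Transcript length moved with the same comparisons. In males, genes outside the members had a median log2 fold change of -0.09 for principal transcripts of at most 1000 bases, -0.05 for over 1000 to 2000, -0.01 for over 2000 to 4000 and 0.05 for over 4000 bases. At 4 h these medians were -0.07, -0.03, 0.00 and 0.04, in females 0.01, 0.00, 0.00 and 0.01, and for the sex difference of the KO effect -0.10, -0.05, -0.01 and 0.05. Most members have short transcripts, and the part of length in their values was not tested.

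Of the other genes of the pathway none passed in any of these comparisons. In males 11 of 13 translation factors lay below 0 with a median of -0.09, as did 64 of 77 mitochondrial ribosomal proteins with -0.09; of 30 genes of ribosome making 12 lay below 0, with a median of 0.01, and of 14 genes around mTOR, such as Mtor, Larp1 and Eif4ebp1, 3, with 0.06. At 4 h 11 of 13 translation factors lay below 0 (median -0.04), and 29 of 77 mitochondrial ribosomal proteins (0.02), 11 of 30 genes of ribosome making (0.07) and 2 of 14 mTOR genes (0.08). The 8 p53 targets, such as Cdkn1a and Mdm2, had medians of 0.03 at 4 h, 0.08 in females and 0.00 in males. In females 11 of 13 translation factors (median -0.05) and 44 of 77 mitochondrial ribosomal proteins (-0.03) lay below 0. Among cell markers, the 4 choroid plexus genes (Ttr, Kl, Folr1 and Clic6) summed to 8.77 to 2724 CPM in KO-labelled females, 6.57 to 9.99 CPM in Het females, 7.54 to 467 CPM in KO-labelled males and 6.21 to 10.6 CPM in Het males; their correlation with the core members was 0.27 (rho 0.24, 14 libraries), and -0.15 without their 2 farthest libraries, KO female 3 and KO female 1. The forebrain markers correlated with the core members at -0.62 (rho -0.59) at 24 h and at -0.21 (rho -0.37) at 4 h. The microglia markers (C1qa, C1qb, Cx3cr1, Csf1r and P2ry12) were at -0.82 (rho -0.71, 6 libraries) at 4 h. At 24 h they were at 0.09 (rho -0.0022, 14 libraries). The red cell genes (Hbb-bs, Hba-a1, Hba-a2 and Alas2) were at 0.73 (rho 1.00) at 4 h and 0.25 (rho 0.18) at 24 h. Without the 2 farthest libraries of each list, forebrain was at -0.58 at 24 h and -0.41 at 4 h. Microglia were then at -0.87 at 4 h, over 4 libraries, and 0.41 at 24 h. Red cell genes were at 0.95 at 4 h, over 4 libraries, and -0.07 at 24 h.

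Some lists of cell type markers also leaned to one side, with 0 called at the adjusted threshold in these lists. At an unadjusted p under 0.05, all genes had 6.65% lower and 7.25% higher at 4 h. In females at 24 h these shares were 2.04% and 2.06%, and in males 2.74% and 4.13%. At 4 h all 4 endothelial markers lay below 0 in KO-labelled slices (median -0.27, 3 at an unadjusted p under 0.05), as did all 5 meningeal fibroblast markers (median -0.30, 3) and all 5 astrocyte markers (median -0.14, 2), and all 6 neuron markers lay above 0 (median 0.10, 1). The endothelial sum was 155 to 181 CPM in KO-labelled and 196 to 223 CPM in WT slices. The neuron sum was 6319 to 6707 CPM in KO-labelled and 6013 to 6097 CPM in WT slices. The astrocyte sum was 1267 to 1271 CPM in KO-labelled and 1414 to 1535 CPM in WT slices, so that each of these sums stood apart. The meningeal sums, 170 to 257 CPM in KO-labelled and 215 to 302 CPM in WT slices, overlapped. All 4 oligodendrocyte lineage markers lay below 0 at 4 h as well (median -0.12, 0 at an unadjusted p under 0.05). In females at 24 h all 4 markers of dividing cells lay below 0 (median -0.44, 2 at an unadjusted p under 0.05) and all 4 red cell genes above 0 (median 0.63, 0). Both sums overlapped. Red cell genes had 39.5 to 215 CPM in KO-labelled and 54.3 to 92.0 CPM in Het females, and markers of dividing cells 78.3 to 114 and 94.9 to 146 CPM. All 4 choroid plexus genes lay above 0 in females (median 2.63, 4 at an unadjusted p under 0.05) and in males (median 1.23, 1). In males at 24 h all 5 meningeal markers lay above 0 (median 0.37, 1 at an unadjusted p under 0.05) and all 5 microglia markers below 0 (median -0.17, 1). The part of any of these lists in the members' values was not tested.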

How the data were processed

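Per the labels' protocols, RNA from the slices was made into SMART-Seq v4 libraries. Of tools and builds, GRCm38 (mm10), TopHat2, HTSeq and DESeq2 1.38.3 appear in the submitters' processing notes, without roles; no source used here states the annotation release or strandedness. At 24 h the values are read counts as deposited. At 4 h the authors divided counts by a size factor per library and deposited this signal; multiplying back gave whole reads (100% of values within 0.05 of a whole number). On those reads edgeR called 2 genes higher and 5 lower, and DESeq2 107 and 54. Symbols matched 19673 of 19722 and 51633 of 51912 identifiers. No replicate pair agreed within sampling noise (chi-square per degree of freedom at least 3.17).

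At 4 h, log2(value + 1) was tested, for genes averaging 10 or more, with limma 3.58.1 with an intensity trend; fold changes on this scale understate those of low genes. At 24 h, edgeR 4.0.16 (R 4.3.3, TMM, filterByExpr, quasi-likelihood, two-sided) was fitted to all 14 libraries with 1 mean per genotype and sex. DESeq2 1.42.0 was an alternative. Adjusted p-values are Benjamini-Hochberg over all genes, threshold 0.05. CPM given per library for a gene at 24 h use TMM-scaled totals; levels per kb, levels of second copies, sums of markers and shares use library totals. Lengths and coordinates come from the GENCODE annotation of GRCm38, 1-based. At 4 h same-numbered KO and WT libraries deviated together (correlations 0.264, 0.14 and 0.175 over genes), so the replicate number was also used as a block; this pairing comes from the numbers in the titles. Named per comparison were members past the threshold, the 5 highest and 5 lowest fold changes among those of at least 1 CPM (24 h) or a mean value of 10 (4 h), second copies with partners, X-linked and stalk members, Rps3, Rps6, Rps27a and Rpsa; members failing the filter are all named. A few genes that this rule or the lists name are not reported here. The members and lists were chosen with earlier results of these data known. Values after ± are the SD over libraries for levels and shares, and the SE from the fit for log2 fold changes.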

Additional observations from a re-analysis of the deposited data

Results flagged for a closer look

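In groups of 4, a library was marked when its gap to the nearest other exceeded Dixon's 95% critical value of the range. This was tested in 84 groups of values of KO-labelled females and males at 24 h, 10 were marked, and chance marks about 1 in 20 groups. Since members move together, the marks are not independent. Many of these genes were named for high or low fold changes in these same libraries, so the rate of 1 in 20 need not hold. In KO-labelled females the library KO female 1 stood above the others for Rpl12 (341 CPM, the others 242 to 251), Rps12 (381 CPM, the others 269 to 287) and Rps28 (155 CPM, the others 127 to 132). The library labelled KO female 2 stood below the others for Rpl28 (211 CPM, the others 252 to 258) and Rpl36 (80.7 CPM, the others 111 to 117). In KO-labelled males KO male 1 stood above the others for Rps27l (29.5 CPM, the others 20.1 to 20.4), Rps12 (291 CPM, the others 233 to 240), Rplp1 (554 CPM, the others 436 to 454), Rplp2 (201 CPM, the others 172 to 176) and Rpl7l1 (68.8 CPM, the others 61.7 to 62.9).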

How the results depend on the processing

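Of 240 alternative values for the counts of members called, the median member fold changes and the shares of reads, 238 kept their call or lay within the spread. The other 2 were counts called: DESeq2 on recovered reads called 1 member at 4 h (Rpl7l1), and edgeR without the filter called 3 in males. The cause was not tested. For medians and shares the spread was the pooled SD of libraries within their groups. A median near 0 could therefore change sign and still count as kept. With single libraries left out, the median ran from -0.074 to 0.060 in females and from -0.10 to -0.0065 at 4 h. Of the values for single members, 77 changed sign, none of them past the threshold in either fit. On library totals at 4 h, Rpl36 was at -0.013, Rplp1 at -0.018 and Rps14 at -0.026, with scaling on non-members (chosen, like the next, after seeing the data) Rps14 was at -0.00076, and without both libraries with Xist reads Rpl36 was at -0.067. At 24 h on library totals Rpl30 (males minus females) was at 0.010. Without the library labelled KO female 2, Rplp0 (averaged) was at 0.015, the sex difference of the KO effect was -0.011 for Rpl13a, -0.036 for Rpl7 and -0.050 for Rpl5, and males minus females was -0.025 for Rps4l, -0.018 for Rpl13a and -0.023 for Rpl28.

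Leaving out single libraries, log2 fold changes ranged at 4 h from -0.023 to 0.071 (Rpl36) and -0.049 to 0.069 (Rps14); in females from -0.028 to 0.21 (Rpl22l1) and -0.046 to 0.13 (Rpl12); in males from -0.039 to 0.25 (Rpl13a) and -0.18 to 0.034 (Rps27l). Averaged over sexes they ranged from -0.0017 to 0.12 (Rps27l), -0.059 to 0.063 (Rpl22l1) and -0.055 to 0.016 (Rplp0). The sex difference of the KO effect ranged from -0.11 to 0.22 (Rpl13a), -0.026 to 0.089 (Rpl7l1), -0.036 to 0.11 (Rpl7), -0.016 to 0.077 (Rpl22) and -0.050 to 0.11 (Rpl5), and males minus females from -0.058 to 0.21 (Rps4l), -0.016 to 0.054 (Rpl23), -0.068 to 0.095 (Rpl13a), -0.023 to 0.029 (Rpl28) and -0.028 to 0.020 (Rpl30). The KO minus control share of reads ranged from -0.198 to -0.0625 percentage points at 4 h, -0.136 to 0.0683 in females and -0.323 to -0.146 in males.

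At 24 h same-numbered libraries correlated at -0.264 to 0.0874, so the numbers were not read as pairs. With the replicate number as a block 0 members passed in any comparison of KO with Het, as without it. In males 6 were lower at an unadjusted p under 0.05 with the block, against 13 of 82 without it (all genes 2.74%). The share of all genes under the block is not given here, so the 6 cannot be set against it. Under this block Rps27l in males was at 0.00085, and averaged over sexes Rpl22l1 was at 0.0075. At 4 h the block changed no call of a member. Depth limits the members under the filter, whose 0 to 14 reads per library allow no comparison.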
